A study of Mus musculus with 20 samples.

Results

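The cytosolic ribosomal protein genes encode the proteins of the large and the small subunit of the cytoplasmic ribosome. They were taken by symbol as every gene of the Tomato and Cherry count tables named Rpl or Rps with a number (also with the ending a, x or l), together with Rplp0, Rplp1, Rplp2 and Rpsa, and without pseudogenes marked -ps. This gave 83 of 55376 genes, 51 of the large and 32 of the small subunit. The rule uses symbols only, but it was chosen with earlier results of these data known. A low-count filter left 80 of the 83 to be tested in either experiment. The other 3 were Rpl3l, Rpl10l and Rpl6l, which had 0 to 17 counts in every library, so "tested members" below never means all 83.

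Each library is bulk polyA RNA-seq of cells sorted from adult mouse sciatic nerve for a red reporter and against the leukocyte protein CD45. In the Tomato experiment the reporter was R26-TomatoLSL, switched on by Cdh5(PAC)-CreERT2, a Cre recombinase driven by a promoter of endothelial cells, and all its samples are labelled Plxnd1 WT. Its groups were intact nerve (5 libraries) and injured nerve 7 days (7 dpi, 5 libraries) and 14 days (14 dpi, 4 libraries) later. Cells of the Cherry experiment carried Kdr-Cherry and were taken from the lesion at 7 dpi, either from control mice (labelled Plxnd1 WT, 3 libraries) or from Plxnd1 fl/fl mice whose endothelial cells lost Plexin D1 through a Cdh5 CreER transgene (Plxnd1 KO, 3 libraries). Nerves were pooled before sorting and no label ties a library to an animal. The injury is called a crush in one label and a bridge lesion in the design text, and no ages beyond adult are given.

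A ribosome holds each of these proteins in about equal number, so cells keep their synthesis in step. Much of that control acts on translation: the mRNAs begin with a run of pyrimidines, the terminal oligopyrimidine tract, through which the kinase mTOR and the RNA-binding protein LARP1 set whether they are translated or stored. Ribosome production rises when cells grow and divide, as endothelial cells do in a wound, and read counts show mRNA abundance, not translation.

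The letters around the annotated start sites were read for runs of C and T. RefSeq promoter sequences on GRCm38.p6 were matched by symbol for 61 of the 83 genes. The 30 bases from 15 before the start site onward are shown for 4 genes that had the greatest rises at 7 dpi and for the paralogs Rps27 and Rps27l, with the longest run of C and T in capitals, 5′ to 3′ in the direction of transcription.
Rps2: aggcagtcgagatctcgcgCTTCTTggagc
Rpsa: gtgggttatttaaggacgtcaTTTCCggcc
Rplp0: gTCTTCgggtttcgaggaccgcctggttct
Rpl13a: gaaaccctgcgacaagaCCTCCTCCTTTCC
Rpl7a: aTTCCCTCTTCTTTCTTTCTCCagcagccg
Rps27: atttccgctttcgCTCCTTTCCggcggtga
Rps27l: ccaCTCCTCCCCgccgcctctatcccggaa
Rpl7a is added because its run of 21 was the longest among the members. The windows lie at chr17:24720048-24720077 (plus strand) for Rps2, chr9:120127751-120127780 (plus) for Rpsa, chr5:115559452-115559481 (plus) for Rplp0, chr7:45128731-45128760 (minus) for Rpl13a, chr2:26910792-26910821 (plus) for Rpl7a, chr3:90213634-90213663 (minus) for Rps27 and chr9:66946071-66946100 (plus) for Rps27l. They cover promoter and the first bases of the first exon, and the sites are annotated, not measured in these cells. The marked runs of Rps27 and Rpl7a cross the annotated start site, those of Rplp0 and Rps27l end before it, and those of Rps2, Rpsa and Rpl13a begin after it, so a marked run is not shown to be the first letters of the mRNA.

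A run of at least 6 C or T was present in this window in 38 of 61 members (62.3%) and in 32.7% of 27025 genes with a RefSeq promoter. Rplp0 and Rpsa were among the members without one. In the wider sequence from 250 bases before to 50 after the start, CTTTCC in the direction of transcription was present in 25 of 61 members (41.0%) against 16.01% of all genes, and CTTTTC in 21.3% against 12.9%. CCGGAAG, the core letters bound by ETS factors, was present on either strand in 41.0% against 9.93%, and AAGATGGC, the core of the YY1 site, in 8.20% against 3.19%. The E box CACGTG, which Myc and other factors bind, was present on either strand in 9.84% of members and 8.09% of all genes, and TATAAA in 9.84% and 9.77%. These matches are letters, not measured binding. Over 59 tested members with a printable window, the length of the run and the 7 dpi fold change had a Spearman's rho of 0.11 and a Pearson's r of 0.12, given as a description of genes measured in the same libraries.

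Total counts per library were 19057029 to 34181449. Plxnd1, the deleted gene, was at 349.8, 324.0 and 343.5 CPM (counts relative to the library total, scaled by TMM within an experiment) in the Plxnd1 WT libraries and at 131.4, 160.5 and 160.1 in the KO libraries, a log2 fold change of -1.23 ± 0.10 (SE; edgeR quasi-likelihood test, Benjamini-Hochberg adjusted). The labels give every library a batch, 1133 or 1292, without saying what the number stands for, and each batch holds libraries of every group. The summed level of 10 endothelial markers (Pecam1, Cdh5, Kdr and others) was 4274 to 11433 CPM in intact, 5787 to 9188 at 7 dpi and 5310 to 7390 at 14 dpi. The summed level of 8 fibroblast markers (Col1a1, Col3a1, Dcn and others) reached 9146 to 16865, 4458 to 19941 and 16306 to 35968 CPM in the same groups, so the Tomato libraries hold RNA of fibroblast genes beside that of endothelial genes.

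The share of all counts that fell on the 83 genes was taken first, because it does not depend on a scaling. In intact nerve it was 3.09, 2.76, 2.41, 3.51 and 2.01% in replicates 1 to 5. At 7 dpi it was 4.33, 4.13, 3.96, 4.32 and 4.06%. At 14 dpi it was 5.08, 2.97, 2.80 and 3.62%. Every 7 dpi library lay above every intact library, and the means were 2.76 ± 0.58% (SD, n = 5) in intact and 4.16 ± 0.16% (SD, n = 5) at 7 dpi. The 14 dpi libraries overlapped both groups, with a mean of 3.62 ± 1.04% (SD, n = 4), and the library at 5.08% was the highest of the Tomato experiment. In bulk samples, less RNA of other genes in a cell and more RNA of these genes cannot be told apart in a share, nor can a change within cells and a change in which cells were sorted.

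**Figure D1:**
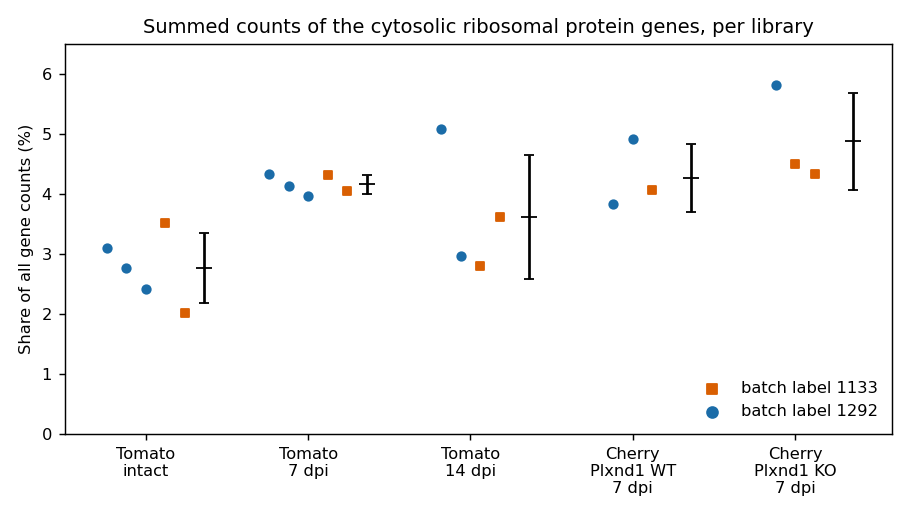
Share of all gene counts, in percent, that fell on the 83 cytosolic ribosomal protein genes; each point is a library, squares are batch 1133, circles batch 1292, and bars are the group mean and SD. The 7 dpi libraries lie between 3.96 and 4.33%, above all 5 intact libraries, and the 14 dpi libraries spread from 2.80 to 5.08%.

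Both subunits had higher shares at 7 dpi, given here without a test. The large subunit took 1.58 ± 0.32% of counts in intact and 2.39 ± 0.10% at 7 dpi (SD, n = 5 each), and the small subunit 1.18 ± 0.27% and 1.77 ± 0.08%. The means of the share were 2.76% in intact and 4.19% at 7 dpi in batch 1133, and 2.76% and 4.14% in batch 1292.

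At 7 dpi, 33 of the 80 tested members (41.2%) were higher than in intact nerve and 0 were lower (edgeR quasi-likelihood test over 20409 genes, adjusted p under 0.05). Of all genes tested, 15.7% were called higher and 16.3% lower, and of the 3349 genes whose average log2 CPM reached 6, 30.2% were called higher. The median log2 fold change of the members was 0.55, with the middle 50% of them between 0.43 and 0.71, and that of all genes was -0.10. The fold change was positive in 79 of 80 members, against 44.7% of all genes. All 5 libraries at 7 dpi lay above all 5 intact libraries in 18 members, against 10.9% of all genes. The count of 33 was 66 without intact replicate 4 and 22 without 7 dpi replicate 1. The share of all genes called in these 2 runs is not reported here, so both counts have no background beside them. Of the large subunit 19 of 48 were called and of the small subunit 14 of 32, with medians of 0.54 and 0.58.

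**Figure D2:**
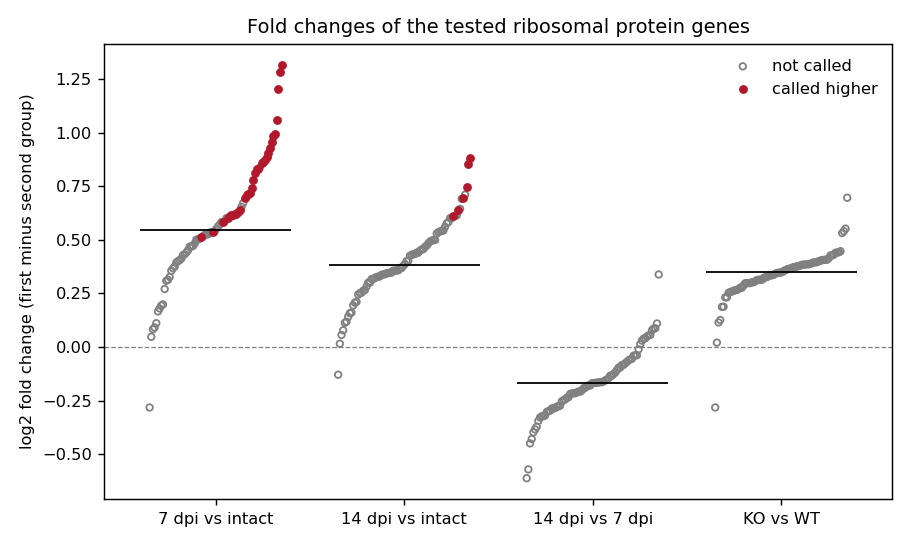
Log2 fold changes of the 80 tested members in the 4 comparisons, each column sorted by value; filled points were called higher (edgeR adjusted p under 0.05), open points were not called, and the horizontal line is the median. The medians are 0.55, 0.38, -0.17 and 0.35 from left to right, with 33, 6, 0 and 0 members called.

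The member with the greatest rise was Rps2, a small subunit protein near the entry of the mRNA channel (chromosome 17, 24720063-24721929, GRCm38, plus strand). Its level was 412.8, 496.4, 381.3, 471.9 and 246.0 CPM in the intact libraries and 960.4, 975.6, 896.6, 1163 and 996.8 CPM at 7 dpi. The groups did not overlap, and Rps2 rose by 1.32 ± 0.18 on the log2 scale (edgeR adjusted p = 3.07e-05), which is 2.49-fold. Rpsa, a small subunit protein that is also known as the laminin receptor precursor (chromosome 9, 120127689-120132369, plus strand), was at 277.6, 313.0, 212.1, 430.8 and 214.1 CPM in intact and 541.8, 622.1, 538.4, 1022 and 913.1 CPM at 7 dpi. Its lowest 7 dpi library lay above its highest intact library, with a log2 fold change of 1.28 ± 0.21 (edgeR adjusted p = 0.000157). Both batch 1133 libraries at 7 dpi stood above the 3 of batch 1292.

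Rpl13a, a large subunit protein with a known role in silencing inflammatory mRNAs, rose by 1.06 ± 0.18 (edgeR adjusted p = 0.000262). Its level was 23.04, 24.17, 20.87, 26.92 and 13.56 CPM in intact and 44.06, 42.49, 40.19, 47.87 and 51.96 at 7 dpi, again without overlap. Other annotated genes, Gm45713 and the microRNA Mir5121, cover 54.9% of its exon bases on the same strand, and the part of that overlap in its low level was not tested. Rpl10a, a large subunit protein of the mobile arm past which used tRNA leaves, rose by 0.99 ± 0.21 (edgeR adjusted p = 0.00145), from 104 to 247.4 CPM in intact to 293 to 413.9 at 7 dpi. Rpl12, next to the base of the stalk, rose by 0.98 ± 0.22, and Rpl7a by 0.96 ± 0.18. Rpl12 was the only one of these 6 whose groups overlapped, since intact replicate 4 reached 234.6 CPM and the lowest 7 dpi library was at 221.1.

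Of the stalk genes Rplp0 rose, and Rplp1 and Rplp2 were not called. The stalk is the flexible arm of the large subunit that recruits elongation factors, and Rplp0 is its base, on which Rplp1 and Rplp2 sit as dimers. Rplp0 (chromosome 5, 115559467-115563727, plus strand) was at 1117, 1390, 1067, 1252 and 637.6 CPM in intact and 2365, 2412, 2277, 2980 and 2498 CPM at 7 dpi. The groups did not overlap, and Rplp0 rose by 1.20 ± 0.19 (edgeR adjusted p = 0.000125). Rplp1 was at 831.2, 677.0, 591.7, 1220 and 412.5 CPM in intact and 1053, 938.5, 920.6, 987.7 and 781.8 at 7 dpi. Intact replicate 4 was above every 7 dpi library, and the difference of 0.33 ± 0.24 did not pass (adjusted p = 0.355). Rplp2 differed by 0.40 ± 0.27 (adjusted p = 0.312). The coding length is 951 nt for Rplp0 and 342 and 345 nt for Rplp1 and Rplp2. Over the tested members with a coding length, Spearman's rho of the 7 dpi fold change with that length was 0.45. It was 0.81 in batch 1133 alone and -0.10 in batch 1292 alone. The part of length in the stalk genes' values was not tested.

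As a description, the same libraries were read as the log2 ratio of Rplp0 to Rplp1 counts. It was 0.60 ± 0.39 in intact and 1.42 ± 0.21 at 7 dpi (SD, n = 5 each), a difference of 0.83, with 1.30 in batch 1133 and 0.51 in batch 1292. For Rplp0 to Rplp2 the difference was 0.73, with 1.32 and 0.35 in the batches. The ratios of members were chosen because their fold changes differed in these libraries. A permutation test of the group labels was run on them, and its result is not reported here for that reason.

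**Figure D3:**
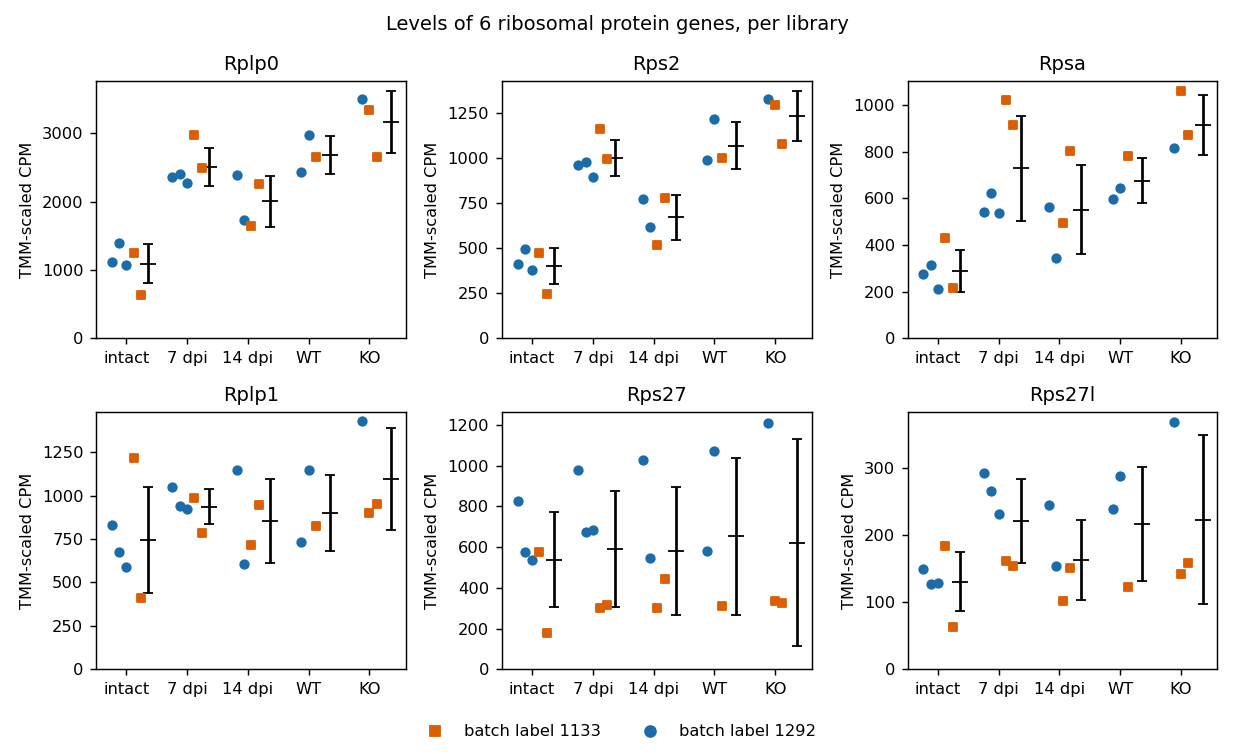
TMM-scaled CPM of 6 members in each library of the 5 groups; squares are batch 1133, circles batch 1292, bars are mean and SD, and the Tomato and Cherry groups were scaled separately. Rplp0, Rps2 and Rpsa have no overlap between intact and 7 dpi, Rplp1 and Rps27 overlap, and the batch 1133 libraries of Rps27 lie below those of batch 1292 at 7 dpi, in WT and in KO.

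Other members with known roles beyond the ribosome rose less. Rpl5 and Rpl11, which with the small ribosomal RNA of the large subunit bind the p53 inhibitor Mdm2, rose by 0.86 ± 0.19 (edgeR adjusted p = 0.00249) and 0.62 ± 0.22 (0.0388). Rpl5 was at 104.4 to 201.6 CPM in intact and 240.3 to 310.8 at 7 dpi without overlap, while the groups of Rpl11 overlapped. The Rpl11 call was lost in 6 of 10 fits that left out 1 library. Rps6, the small subunit protein phosphorylated downstream of mTOR, rose by 0.62 ± 0.19 (adjusted p = 0.0166), and Rps3, at the mRNA entry and also a DNA repair protein, by 0.63 ± 0.20 (adjusted p = 0.0227). Rpl38, Rpl22 and Rps25, each of which has been tied to the translation of particular mRNAs, were not called, with differences of 0.54 ± 0.29, 0.31 ± 0.22 and 0.47 ± 0.23.

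Among the paralog pairs, Rps27l rose and Rps27 was not called. Rps27l is a near copy of the small subunit protein Rps27 and is known as a target of p53. Its level was 149.0, 127.2, 127.6, 182.9 and 63.05 CPM in intact and 292.2, 265.6, 231.3, 160.7 and 152.9 CPM at 7 dpi, a log2 fold change of 0.71 ± 0.23 (edgeR adjusted p = 0.0276). The Rps27l call was lost in 5 of 10 fits that left out 1 library. Rps27 was at 826.5, 577.1, 536.5, 573.9 and 177.1 CPM in intact and 981.3, 673.5, 684.9, 298.4 and 318.0 at 7 dpi, a difference of 0.05 ± 0.27. The groups of both overlapped, and the batch 1133 libraries at 7 dpi were the lowest of their group in both. Within libraries the log2 ratio of Rps27l to Rps27 was -1.97 ± 0.40 in intact and -1.32 ± 0.35 at 7 dpi (SD, n = 5 each). The difference of 0.65, given as a description, was 0.60 in batch 1133 and 0.69 in batch 1292.

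The other pairs held a high and a low or uncertain copy. Rpl3 rose by 0.51 ± 0.18 (edgeR adjusted p = 0.0415) and Rpl10 by 0.60 ± 0.19 (0.0209), while Rpl3l, the muscle paralog, and Rpl10l, the testis paralog, had at most 17 counts in a library. The Rpl3 call was lost in 7 of 10 fits that left out 1 library. Rpl39 differed by 0.60 ± 0.30 (adjusted p = 0.141) and Rpl39l, with 7 to 73 counts per Tomato library, by 0.41 ± 0.59. Rps4x, the X-linked copy of Rps4, differed by 0.51 ± 0.20 (adjusted p = 0.0694) and Rps4l by 0.19 ± 0.16. GENCODE M21 lists Rps4l, Rpl6l and Rpl32l as processed pseudogenes, and whether reads of Rps4x were placed on Rps4l was not tested.

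Levels between members were compared per kilobase of the gene length in the deposited table. In intact nerve the median over the 83 genes was 268.5 CPM per kilobase, with the middle 50% from 129.2 to 464.9. By that length the order was led by Rplp1 (1496 ± 611, SD, n = 5), Rps27 (1165 ± 503), Rpl4 (932 ± 207), Rpl13 (897 ± 232) and Rps29 (876 ± 497), and these neighbours do not differ beyond their spread. At 7 dpi Rplp1 (1876 ± 201) and Rplp0 (1846 ± 204) led, and Rplp0 had been at 805 ± 209 in intact. The order depends on the length used: per kilobase of coding sequence Rpl41, a very short peptide, led in intact at 4887 CPM, ahead of Rplp1 at 2182.4 and Rps27 at 2136. The deposited length of some members is far above that of their mRNA, as for Rps15a with 5395 against 640 nt. The same 7 genes stayed under 5 CPM per kilobase in all 5 groups: Rpl10l, Rpl3l, Rpl6l, Rpl32l, Rpl39l, Rpl24 and Rps10. Rpl24 and Rps10 encode core proteins, yet had 5 to 30 and 11 to 60 counts per Tomato library. The annotation places other genes over 71.5% of the exon bases of Rpl24 on its own strand (Gm28037) and over 54.3% of those of Rps10 on either strand (Gm49804 and Gm15420). The part of these overlaps in their levels was not tested. Rpl24 was the member with a negative value at 7 dpi (-0.28 ± 0.62, not called).

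Differences between the batches went with the members' length. In the same edgeR fit, 9 of 80 members were higher in batch 1292 than in 1133 in the Tomato experiment (9.56% of all genes) and 1 was lower, Rpl8 (5.08% of all genes), so neither count stood out from the background. In the Cherry experiment 24 members were higher (5.09% of all genes) and 0 were lower (4.78% of all genes). The 11 tested members with a coding sequence under 300 nt were all above 0, with a median of 1.06 in Tomato and 1.45 in Cherry. Rps28, a small subunit protein, differed by 1.40 ± 0.25 in Tomato and 1.86 ± 0.17 in Cherry, and Rpl38 by 1.26 ± 0.26 and 1.93 ± 0.21. Across the 78 tested members with a coding length, Spearman's rho of the batch difference with that length was -0.72 in Tomato and -0.86 in Cherry, a description of genes that share the same libraries. The short members took 4.28 to 7.47% of the members' counts in the Tomato libraries of batch 1133 and 9.02 to 12.1% in those of batch 1292, ranges that do not overlap. This test and the limit of 300 nt were chosen after the data were seen.

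**Figure D4:**
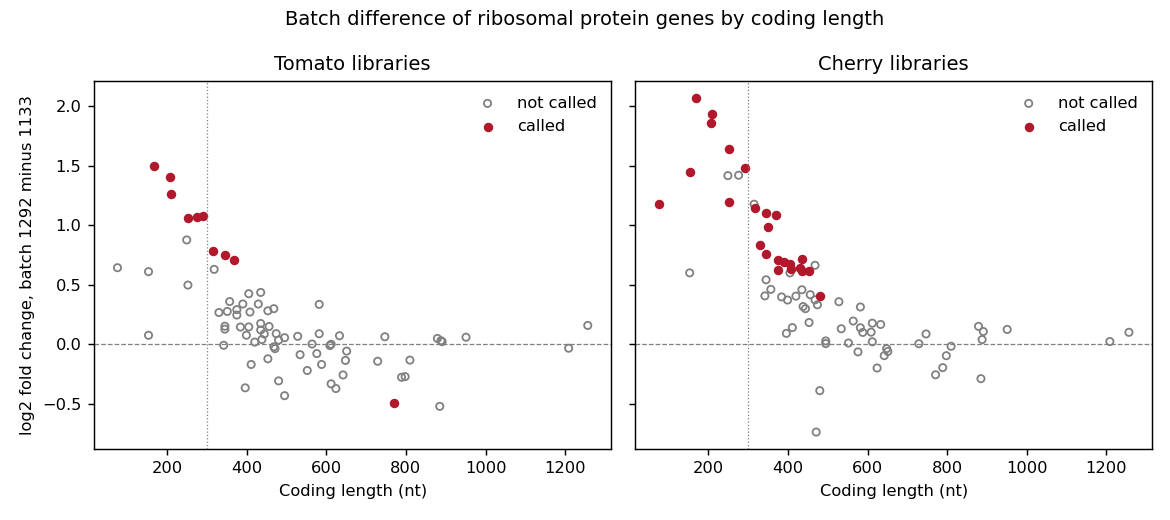
Log2 fold change of batch 1292 over batch 1133 against coding length in nucleotides for the tested members, in the Tomato (left) and Cherry (right) fits; filled points were called (edgeR adjusted p under 0.05) and the dotted line marks 300 nt. All 11 members under 300 nt lie above 0 in both panels, and Spearman's rho is -0.72 and -0.86.

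The members' median log2 fold change at 7 dpi was positive in both batches, but the values were not distributed alike. That median was 0.47 in batch 1133 (2 intact and 2 injured libraries) and 0.63 in batch 1292 (3 and 3), and 72 of 80 had the same sign in both. In batch 1133 the median level over the tested members was 410.6 CPM in intact replicate 4 and 146.7 in intact replicate 5. At 7 dpi it was 407.1 and 341.8. By that median only intact replicate 5 lay below both 7 dpi libraries, while by share of counts both intact libraries did. The TMM factor of intact replicate 5 was 1.32, against 0.89 to 1.05 in the other Tomato libraries. Batch 1292 alone called 33 members higher and batch 1133 alone called 3. These fits differ in their number of libraries, and the share of all genes called in each is not reported here. The 2 counts are therefore not a comparison of the members between batches. In batch 1133 the short members had a median of -0.01 and the 67 with 300 nt or more a median of 0.55, with a Spearman's rho between fold change and coding length of 0.81. In batch 1292 the medians were 0.79 and 0.62 and rho was -0.10. A batch-by-group interaction called 0 members (smallest adjusted p = 0.985 by edgeR; 0 at an unadjusted p under 0.05, and no other tool was run), and 0% of all genes. The number of libraries per batch limits that test. Of the 33 called members, 31 had 300 nt or more, and Rps27l and Rpl41 were the short ones.

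**Figure D5:**
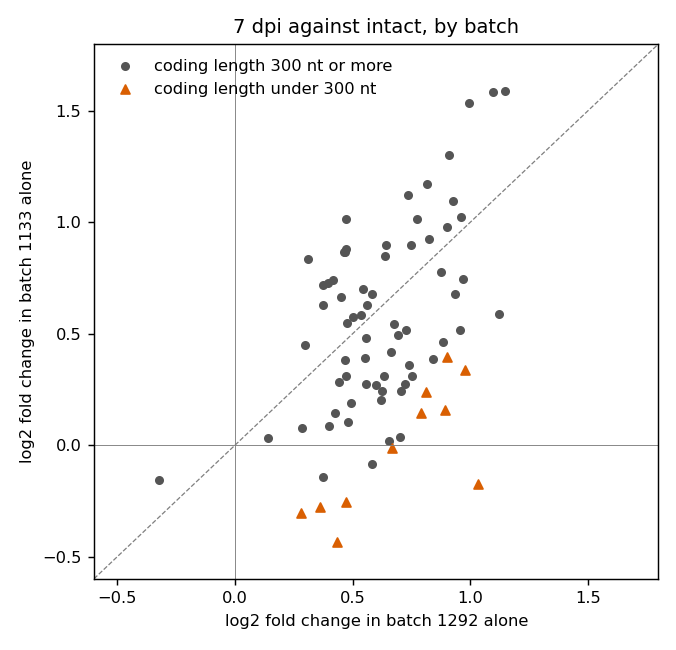
Log2 fold change at 7 dpi over intact in batch 1292 alone (x axis) and in batch 1133 alone (y axis) for the tested members with a coding length; triangles are the 11 members under 300 nt, and the dashed line marks equal values. The triangles all lie below the line, with medians of 0.79 on the x axis and -0.01 on the y axis.

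Marker genes of dividing cells and of other cell types moved with the 7 dpi comparison. All 8 cycling markers were called higher, with a summed level of 102.6 to 142.2 CPM in intact and 775.1 to 931.0 at 7 dpi, and 6 of 10 endothelial markers were called higher and 1 lower. All 7 tested perineurial markers were called lower, from 4576 to 7113 CPM down to 590 to 1199 (an eighth, Cldn22, was at 0 in every library), as were 5 of 5 erythroid markers (41.1 to 156.4 CPM against 10.3 to 55.1), 5 of 8 mural markers (1905 to 2648 against 830 to 2164) and 5 of 8 Schwann cell markers with 1 higher (546 to 993 against 157 to 248). Of the fibroblast markers 5 were called higher and 1 lower, and of 8 macrophage markers 0 were called (11.3 to 16.7 CPM against 9.89 to 300.3; C1qa, Aif1 and Ptprc were at 0 in at least 1 intact library). The part of these in the ribosomal protein result was not tested.

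The rest of the translation machinery was followed through lists of genes by role, whose counts stand beside the 15.7% of all genes called higher and 16.3% called lower at 7 dpi. Of 9 tested ribosomal proteins and partners whose symbols the choice above does not match, 4 were called higher at 7 dpi and 0 lower. Among them were Rack1, the signalling scaffold on the small subunit (1.20 ± 0.20), Rps3a1 (0.63 ± 0.19) and the Rpl22 paralog Rpl22l1 (0.68 ± 0.24). Fau, a ubiquitin-like fusion of a small subunit protein, was not called (0.31 ± 0.23). Of 35 ribosome assembly genes, 24 were called higher and 0 lower, with a median of 0.55. The nucleolar proteins Npm1 and Ncl rose by 1.26 ± 0.15 and 0.63 ± 0.13 and Nhp2, of the snoRNA particles that modify ribosomal RNA, by 1.45 ± 0.19. Of 18 genes of RNA polymerase I and the Myc network, 5 were higher and 3 lower. Polr1e and Taf1d rose by 0.76 ± 0.16 and 1.06 ± 0.18, Taf1a and the Myc antagonist Mxi1 fell (-1.08 ± 0.23 and -0.94 ± 0.15), and Myc itself was at 0.59 ± 0.22 without passing.

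Most factors of translation were called higher too. Of 29 initiation factors, 21 were called higher and 2 lower, with a median of 0.52: the poly(A)-binding protein Pabpc1 rose by 1.33 ± 0.14 and the helicase Eif4a1 by 0.99 ± 0.14, while its paralog Eif4a2 fell (-0.84 ± 0.13), as did Eif1 (-0.44 ± 0.14). Of 11 elongation factors and other mRNAs known to carry a pyrimidine tract, 10 were higher, among them Eef1a1 (0.68 ± 0.17), Eef1b2 (1.03 ± 0.19) and Hnrnpa1 (1.35 ± 0.14). Of 21 tested genes of the mTOR axis 2 were higher and 3 lower, both below the shares of all genes. Eif4ebp1, a translation repressor that mTOR phosphorylates, rose by 1.67 ± 0.15 and Sesn1, an inhibitor of mTOR signalling, fell (-1.82 ± 0.19), and Mtor was at -0.01 ± 0.13. Of 12 genes of the p53 response to ribosome stress, 4 were higher and 3 lower: Trp53 rose by 1.12 ± 0.16 and Eda2r by 1.35 ± 0.19, Phlda3 fell (-0.74 ± 0.21) and Mdm2 was at 0.17 ± 0.13. The proteins of the mitochondrial ribosome, 77 tested, had 20 called higher and 1 lower (Mrps6, -0.90 ± 0.15), a median of 0.28, and Mrps28 and Mrpl17 as the greatest rises (0.81 ± 0.17 and 0.81 ± 0.15).

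At 14 dpi the members' median lay between intact and 7 dpi. Compared with intact, 6 of 80 (7.5%) were called higher and 0 lower, against 6.86% and 5.09% of all genes, so the share called was near that of any gene. It was below the 12.4% called higher among genes whose average log2 CPM reached 6. The median log2 fold change was 0.38 (0.00 over all genes, 0.31 in batch 1133 and 0.50 in batch 1292), and 79 of 80 values were positive (50.5% of all genes). The 6 were Rplp0 (0.88 ± 0.20, edgeR adjusted p = 0.00727), Rpsa (0.86 ± 0.22, 0.0159), Rps2 (0.75 ± 0.19, 0.0151), Rpl10a (0.69 ± 0.22, 0.0493), Rpl6 (0.64 ± 0.20, 0.047) and Rpl7a (0.61 ± 0.19, 0.0477). All 6 were also called at 7 dpi, a comparison that uses the same intact libraries.

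Markers of other cells moved in the same comparison. All 8 cycling markers, 5 of 8 fibroblast, 4 of 8 Schwann cell (summed 649 to 2438 CPM at 14 dpi) and 3 of 8 macrophage markers (15.8 to 1018 CPM) were called higher than in intact, and 4 of 7 perineurial (1547 to 3488 CPM), 2 of 8 mural and 1 Schwann cell marker lower. Their part in the ribosomal protein values was not tested.

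Only Rplp0 and Rps2 had no overlap between 14 dpi and intact, 2 of 80 members against 5.14% of all genes, and 0 members lay wholly below intact against 4.73% of all genes. Rplp0 was at 2392, 1727, 1641 and 2260 CPM at 14 dpi, and Rps2 at 770.2, 616.7, 520.3 and 777.4. Replicates 1 and 4 were the higher pair for both, as they were for Rpsa (562.4, 346.1, 493.8 and 804.4). The count of called members changed when libraries were left out: it was 29 without intact replicate 4, 2 without 14 dpi replicate 1 or without 14 dpi replicate 4, and 0 in batch 1133 alone. Without both intact replicate 5 and 14 dpi replicate 1, the libraries with the lowest and the highest share of their groups, 1 member was called (Rplp0) and the median was -0.01. These libraries were picked after the members' shares were seen, so the lower values follow in part from that choice. The share of all genes called in any of these runs is not reported here.

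Between 14 and 7 dpi 0 members were called by edgeR in either direction, against 5.73% of all genes higher (8.36% of those with an average log2 CPM from 6 up) and 4.2% lower, and 2 had an unadjusted p under 0.05. The median was -0.17 (0.06 over all genes), and 68 of 80 values were negative. The smallest p-values were those of Rpl13a (-0.61 ± 0.19, adjusted p = 0.0575) and Rps2 (-0.57 ± 0.19, adjusted p = 0.0737), whose 14 dpi libraries all lay below the 7 dpi libraries. Such separation was present downward in 5.79% of all genes and upward in 5.04%, the latter in 0 members. Rpl13a and Rps2 were the 2 members called lower by DESeq2. Next came Rpsa (-0.43 ± 0.22), Rps4l (-0.32 ± 0.17), Rpl7a (-0.34 ± 0.19) and Rpl12 (-0.37 ± 0.23), all with an adjusted p of 0.283 or more. Without both intact replicate 5 and 14 dpi replicate 1, 15 members were called lower and the median was -0.44. The 14 dpi library was picked for its high share of these same members, so the lower values follow in part from that choice. They are no test of a fall. The share of all genes called by DESeq2 or in this run is not reported here. Of the ribosome assembly list 12 of 35 were called lower at 14 than at 7 dpi and 0 higher, among them Npm1 (-0.61 ± 0.16) and Nhp2 (-0.93 ± 0.20), and 7 of 8 cycling markers were called lower, at a summed 251.5 to 334.0 CPM. Markers of other cell types were called higher at 14 than at 7 dpi: 6 of 8 of Schwann cells, 5 of 7 perineurial, 5 of 5 erythroid, 2 of 8 fibroblast and 1 of 8 mural. Their part in the ribosomal protein values was not tested.

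The counts of the other lists at 14 dpi against intact stand beside 6.86% of all genes called higher and 5.09% called lower. Called higher were 1 of 9 of the other ribosomal proteins, 2 of 35 assembly genes, 4 of 29 initiation factors and 2 of 11 elongation genes. Of 77 mitochondrial ribosomal proteins 1 was called higher and 1 lower, and of the polymerase I list 0 of 18 were called. Of the mTOR list 1 of 21 was called (Eif4ebp1, 0.99 ± 0.16) and of the p53 list 2 of 12 (Trp53, 0.55 ± 0.17, and Eda2r, 0.80 ± 0.21).

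With Plxnd1 deleted, 0 of 80 members were called at 7 dpi in either direction by edgeR (0.129% of all 16227 genes were higher and 0.179% lower), with 48 at an unadjusted p under 0.05. When 1 library was left out, that count of 48 ran from 1 (without KO replicate 1) to 70 (without WT replicate 2). DESeq2 called 3 higher, among them Rpl12 and Rpl29. The shares of all genes at that unadjusted limit and by DESeq2 are not reported here. Most values pointed one way: 79 of 80 values were positive, against 48.6% of all genes, with a median of 0.35 (-0.01 over all genes) and the middle 50% between 0.30 and 0.40. All 3 KO libraries lay above all 3 WT libraries in 18 members, against 5.47% of all genes, and 0 lay wholly below, against 6.3% of all genes. The share of counts was 3.83, 4.91 and 4.06% in WT and 5.81, 4.50 and 4.33% in KO. The groups overlapped, and KO replicate 1 was the highest of all 20 libraries.

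The difference was also read within batches. WT has 2 libraries of batch 1292 and 1 of 1133, and KO 1 and 2. Within batch 1292 the KO library, replicate 1, was above the 2 WT libraries by a median of 0.54, and within batch 1133 the 2 KO libraries were above the WT library by 0.18. Without KO replicate 1 the median of all members was 0.18, and without WT replicate 3 it was 0.53. The interaction test called 0 members (1 at an unadjusted p under 0.05, Rpl29; 0.0123% of all genes were called), but WT in batch 1133 and KO in batch 1292 are single libraries there, whose spread is assumed to be that of the others.

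Among the members with the smallest p were Rpl12 (0.45 ± 0.11, edgeR adjusted p = 0.164), Rpl29 (0.53 ± 0.13, 0.187), Rps27l (0.39 ± 0.11, 0.214), Rpl7a (0.36 ± 0.11, 0.238) and Rpsa (0.35 ± 0.10, 0.24). Rpl12 was at 223.5, 278.0 and 257.4 CPM in WT and 352.5, 320.6 and 360.4 in KO. Rpl29 was at 180.4, 157.4 and 277.1 CPM in WT and 305.9, 307.2 and 333.4 in KO, so that its difference was 0.86 in batch 1292 and 0.21 in batch 1133. The groups of Rpl12 and of Rpl29 did not overlap. Rps27l was at 239.0, 287.9 and 122.8 CPM in WT and 367.7, 141.9 and 158.4 in KO, where every library of batch 1292 lay above every library of batch 1133.

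None of the stalk genes passed: Rplp0, Rplp1 and Rplp2 differed by 0.28 ± 0.12, 0.39 ± 0.17 and 0.40 ± 0.28. Rpl5 (0.27 ± 0.09), Rpl11 (0.37 ± 0.14), Rps6 (0.19 ± 0.11), Rps3 (0.34 ± 0.11), Rpl13a (0.38 ± 0.14) and Rpl10a (0.41 ± 0.13) did not pass either. The greatest value, 0.70 ± 0.59 for Rpl26, had a wide spread: the gene was at 83.26, 253.6 and 185.9 CPM in WT and 413.1, 195.7 and 202.0 in KO. No list of the translation machinery had a call in this comparison: the medians were 0.33 for the other ribosomal proteins (8 tested), 0.09 for assembly, 0.11 for initiation, 0.24 for elongation, 0.17 for polymerase I and Myc, -0.05 for the mTOR axis, 0.04 for the p53 list and 0.23 for the mitochondrial ribosome, of which 76 of 77 values were positive. The summed cycling markers were at 755.7 to 926.6 CPM in WT and 953.8 to 1024 in KO, with 0 of 8 called, and 1 of 6 tested perineurial markers was called lower (446.5 to 470.1 CPM in WT, 261.0 to 314.1 in KO). Of the 8 Schwann cell markers 0 were called, with a median of -1.49 and no positive value (153.2 to 473.7 CPM in WT, 119.5 to 222.3 in KO). Their part in the ribosomal protein values was not tested.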

How the data were processed

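The values deposited by the authors are whole-number counts of reads for each gene, per the file headers, in 1 table for each experiment; a further Cherry table holds counts that the authors adjusted with ComBat-Seq. The submitters' processing notes name Trimmomatic 0.39, STAR 2.5.3a, featureCounts 1.6.4, Cell Ranger 3.0.2 and build mm10 (GRCm38). Annotation release, strand setting and handling of multi-mapping reads: not given in the sources used here. Ribosomal protein genes have many pseudogenes and near copies, so these settings can move their counts.

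Counts were analysed with edgeR 4.0.16 in R 4.3.3: filterByExpr by group (minimum count 10), TMM, a batch term and robust quasi-likelihood F tests, in 1 fit of the 14 Tomato and 1 of the 6 Cherry libraries. Genes were called at a Benjamini-Hochberg adjusted p under 0.05 over 20409 and 16227 genes. The SE is the size of the log2 fold change over the square root of F. CPM compare only within an experiment. Coding lengths are from GENCODE M21 (80 of 83 genes). No label ties libraries to animals, so p-values reflect only spread among libraries, possibly technical. The 32 replicate pairs differed beyond sampling noise (chi-square per degree of freedom 18.2 to 149.2). The fits were also run on simulated counts with known changes, the same spread for all genes and no batch difference. Its result is not reported here, and such counts cannot show whether the member calls hold.

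The members, gene lists and tests were chosen with earlier results of these data known. The promoter letters, the log2 CPM limit of 6, exon overlaps, ratios of members, the batch test, the split at 300 nt, the filter given the design and the joint removal of 2 libraries were chosen after values were seen. Genes given by rule were up to 6 called members per comparison and direction (or the 6 of smallest p), a set with known roles, the paralog pairs, and of each list the first symbols and up to 2 called in each direction, of which some are named; Rpl26, Rps28, Rpl24, Rps10, Rpl4, Rpl13, Rps29, Rpl41 and Rpl8 were added for their values. Some genes that the rule names are not reported here. Alternatives were DESeq2 1.42.0, other scalings and filters, no batch term, each batch or the compared groups alone, the ComBat-Seq table and leaving out libraries.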

Additional observations from a re-analysis of the deposited data

How the results depend on the processing

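The median at 7 dpi stayed positive in every alternative run. The share of all genes called in each alternative run is not reported, here or above. The counts of members from those runs therefore have no background beside them. The count of members called higher was 28 to 45 under the other scalings, filters, tools and sets of groups, 33 in batch 1292 alone and 3 in batch 1133 alone (2 against 2 libraries). It ran from 22 (without 7 dpi replicate 1) to 66 (without intact replicate 4, the intact library with the highest share) when single libraries were left out, with medians of 0.40 to 0.77. The lowest of these medians was without intact replicate 5, the intact library with the lowest share, and the highest without intact replicate 4. In batch 1133 alone Rpl39l and Rps27 changed sign (-0.18 and -0.30). Rps21 (-0.44), Rps29 (-0.28), Rpl37 (-0.25), Rpl30 (-0.14), Rpl35a (-0.08) and Rpl37a (-0.01) were also negative in that batch and positive in 1292, so 72 of 80 members had the same sign in both, and 5 of the 11 under 300 nt. Rps27 was at -0.09 without intact replicate 5 and 14 dpi replicate 1 together; leaving out single libraries, it ran from -0.10 to 0.37. The cause was not tested.

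The other counts were less stable. At 14 dpi against intact the members called higher numbered 12 with library size as the only scaling, 11 with no low-count filter, 14 with a log2 CPM filter at 1, 14 by DESeq2, 3 with no batch term, 3 with only the groups compared, 3 in batch 1292 alone, 0 in batch 1133 alone and 1 without the 2 libraries named above. Leaving out 1 library gave 2 (without 14 dpi replicate 1 or 4) to 29 (without intact replicate 4), with 3 without intact replicate 1 or 3, 4 without intact replicate 5, 10 without 14 dpi replicate 2 and 11 without 14 dpi replicate 3, and medians of 0.16 to 0.66. At 14 against 7 dpi the members called lower numbered 2 with RLE scaling, library size only, TMM computed without the members, the log2 CPM filter, DESeq2 and only the groups compared (Rpl13a and Rps2 each time), 1 with no filter (Rpl13a) and 15 without the 2 libraries. Leaving out 1 library gave 0 to 2, with medians of -0.41 to -0.03. In KO against WT 5 members were called higher with no filter (among them Rpl12, Rpl29, Rpl32 and Rpl39), 3 by DESeq2 and 4 in the ComBat-Seq counts (among them Rpl5, Rpl12 and Rpsa), and 0 when any 1 library was left out, with medians of 0.18 to 0.53.

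Without the 50 most abundant other genes in the denominator, the mean share was 4.85% at 7 dpi, 5.07% in WT and 5.84% in KO. The means of intact and 14 dpi with that denominator moved by less than their group SD and are not reported here. The 4.85% is therefore not comparable with the intact mean given above. Leaving out 1 library, the mean share of all counts ran from 2.57 to 2.95% in intact, 4.12 to 4.21% at 7 dpi, 3.13 to 3.89% at 14 dpi, 3.94 to 4.48% in WT and 4.42 to 5.15% in KO. No paired analysis was possible because the labels give no replicate number that groups share; the numbers used here follow accession order. The 3 to 5 libraries per group, fewer within a batch, limit these tests, as does depth for members with few counts. A member that was not called may have changed.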
